A study of Mus musculus with 6 samples.

Results

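The genes for collagen folding and crosslinking enzymes were followed in the mouse RPE/choroid, the retinal pigment epithelium with the vascular layer behind it. The genes were 10 of the 33924 listed in the deposited table, found by their symbols: the collagen chaperone Serpinh1, the prolyl 4-hydroxylase subunit P4ha1, the lysyl hydroxylases Plod1, Plod2 and Plod3, and the lysyl oxidases Lox, Loxl1, Loxl2, Loxl3 and Loxl4. RNA came from C57BL/6J mice, labelled male although the study's methods name both sexes, and the tissue of 2 eyes went into each sample. The young group had 3 samples, of 1 to 2 months of age by the labels, where the study's methods give a slightly older range. The aged group had 3 samples, of 20 to 24 months by their titles and of 22 to 24 months by their time field, and the labels name no transgene or treatment in either group. Libraries were depleted of ribosomal RNA, and the series describes them as poly(A) enriched.

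The measurement used here was the mean normalized count of each gene over all 6 libraries, young and aged together. It is the authors' mean and has no replicate spread. The table has no value per library, so no level was compared between the age groups and no difference between genes could be set against an error. The levels below describe the tissue with the ages combined, and the order of the genes is a description with no test. Ratios between genes are per kilobase (kb) of the longest annotated transcript, unless another length is named. Shares, ranks and medians of the mean normalized count itself are named as such, and they do not allow for transcript length. Other lengths were the mean length of a gene's coding transcripts and its longest coding sequence. Ratios that turned or moved by over 1.5 times with these are given with those values. For the steps from P4ha1 down the order of the genes, only some such values are given. In a bulk tissue, fewer cells of a type and less RNA per cell cannot be told apart.

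Fibrillar collagen is made in the endoplasmic reticulum, where prolyl 4-hydroxylase modifies prolines that stabilise the triple helix, and lysyl hydroxylases modify lysines that later carry sugars or enter crosslinks. Serpinh1 binds the folded procollagen and escorts it out of the endoplasmic reticulum. Outside the cell, lysyl oxidases, which need copper, oxidise lysines of collagen and elastin, and the products join neighbouring molecules. In the eye, such crosslinked matrix is found in the choroid, the sclera and Bruch's membrane, the sheet between the RPE and the choroidal capillaries.

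The level of 1 gene, Loxl2, rested on sequence that the genome holds in more than 1 place. Loxl2 lies at chr14:69609068-69695834 on the plus strand of GRCm38, the build named in the labels. Its coding sequence of 2328 bases was set against the transcript of Gm21451, an unprocessed pseudogene at chr14:69390854-69480287 on the same strand, 128780 bases before Loxl2. The first 2139 coding bases, which hold 713 codons, were the same in both transcripts, with 0 differing bases. The identical stretch ended at an exon boundary. The 60 bases around that end are shown because they mark where a read begins to tell Loxl2 from its copy. The 30 lower-case bases before the boundary are shared, and the 30 bases in capitals after it belong to each transcript.
Loxl2: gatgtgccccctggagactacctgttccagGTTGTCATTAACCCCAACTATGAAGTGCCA
Gm21451: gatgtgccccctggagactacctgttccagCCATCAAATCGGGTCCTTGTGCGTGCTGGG
The Loxl2 bases lie at chr14:69690241-69690270 and chr14:69692314-69692343, and those of Gm21451 at chr14:69471966-69471995 and chr14:69477396-69477425. Of all 50-base words in the coding sequence of Loxl2, 91.7% occurred in Gm21451 and 8.29% in no other gene. Over the whole coding transcript, with its untranslated ends, 54.2% of the words were found in Loxl2 alone. Words of this transcript occurred in 185 other genes, most often in Gm21451. Gm21451 is not listed under that name in the table. Each value for Loxl2 below is therefore uncertain: the authors' quantifier, Sailfish, divides shared reads among the transcripts it is given, and whether Gm21451 was among them was not checked here. For the other 9 genes, no word occurred in a transcript of another gene, and no gene of the group shared a word with another. Transcripts were compared in their own direction only, so sequence shared with a gene on the opposite strand was not searched for.

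The lysyl oxidases themselves are related proteins that share a copper-binding site. A search for the spacing of its tryptophans, histidines and cysteine found 1 site of 11 residues in each of the 5 translated proteins. An exon boundary divided the 33 bases of the site after base 23 in all 5 genes. The codons of the site are shown for 4 of the genes because they are a stretch that these genes have in common, and capitals mark the 20 bases that are the same in all 4.
Loxl1: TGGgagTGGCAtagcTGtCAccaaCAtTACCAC
Loxl2: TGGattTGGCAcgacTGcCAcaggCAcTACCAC
Loxl3: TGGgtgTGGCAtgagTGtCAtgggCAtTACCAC
Loxl4: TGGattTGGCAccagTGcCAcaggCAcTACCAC
In protein, 8 of the 11 residues were the same in these 4 genes. Loxl2 and Loxl4 shared 31 bases of the site and the other pairs shared 21 to 25. The 33 bases of Loxl2 were also identical in Gm21451. On GRCm38 the site of Loxl1 lies on the minus strand at chr9:58294359-58294381 and chr9:58293720-58293729, and that of Loxl4 on the minus strand at chr19:42599877-42599899 and chr19:42598807-42598816. The site of Loxl2 lies on the plus strand at chr14:69682316-69682338 and chr14:69689028-69689037, and that of Loxl3 on the plus strand at chr6:83049995-83050017 and chr6:83050116-83050125.

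Over the whole protein, the lysyl oxidases fell into a pair and a trio by identity. Lox and Loxl1 were identical at 51.5% of aligned residues, and Loxl2, Loxl3 and Loxl4 at 55.7% to 56.4% of theirs. Between the pair and the trio, identity ran from 33.2% to 39.4%. Over the last 200 residues, where the copper site lies, identity was 75.0% for Lox and Loxl1, 66.5% to 70.2% within the trio, and 50.6% to 57.3% between them. Loxl2, Loxl3 and Loxl4 are the longer proteins, with 776, 754 and 758 residues against 411 in Lox and 607 in Loxl1, and their amino-terminal part is known to hold scavenger receptor domains that Lox and Loxl1 lack. The lysyl hydroxylases were about equally related to each other, with 59.5% identity for Plod1 and Plod2, 60.5% for Plod1 and Plod3, and 58.3% for Plod2 and Plod3.

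**Figure D1:**
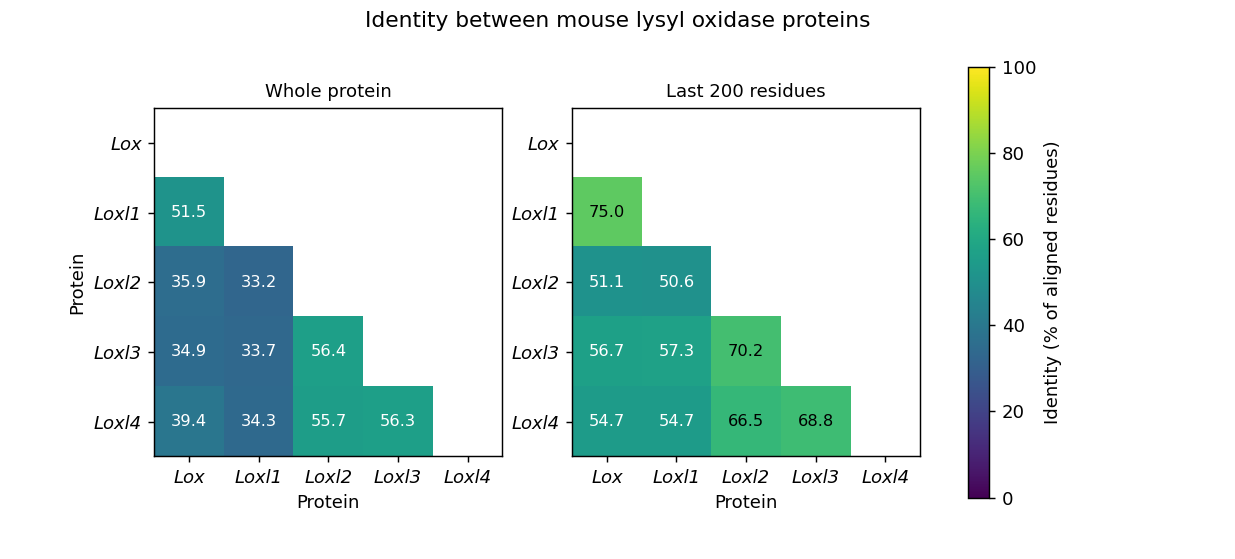
Percent identity of aligned residues between the 5 mouse lysyl oxidase proteins, over the whole protein on the left and over the last 200 residues on the right; each square is 1 pair, coloured from 0 to 100%. Lox with Loxl1 and the trio Loxl2, Loxl3 and Loxl4 have higher values than the pairs between them, and all 10 pairs are more alike over the last 200 residues.

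All 10 genes were measured in the RPE/choroid and passed the minimum level set here, 10 mean normalized counts, as did 18479 genes of the table. Together they held 37489 mean normalized counts, 0.0918% of the table's total of 40816668. Their median was 1980 mean normalized counts, against 668 over all genes at the minimum. Per kb, their median was 511 against 213 over the 17941 such genes with an annotated length. On both scales 9 of the 10 genes lay above the median of all genes. The exception was Plod2 on both scales, and 3 genes, Serpinh1, P4ha1 and Loxl1, were above the upper quartile of all genes per kb, which was 668.

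Serpinh1, the chaperone, had the highest level of the group. Its mean normalized count was 18493, which was 49.3% of the group's total and placed it at rank 260 in the table. Per kb it reached 8133, with 97.5% of genes at or below it, and stood 6.40 times above the next gene, P4ha1. The gene lies at chr7:99345376-99353239 on the minus strand, with 5 exons in its coding transcript.

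P4ha1 makes a catalytic alpha subunit of prolyl 4-hydroxylase. Its mean normalized count was 5141, or 1272 per kb, with 85.7% of genes at or below it per kb. It lies at chr10:59323296-59373304 on the plus strand and has 15 exons. Of the 3 genes for alpha subunits in the table, P4ha1 held 83.4% of the summed level per kb. Its level per kb was 5.15 times that of P4ha2 and 225 times that of P4ha3, whose mean normalized count was 13.6. The ratio to P4ha2 was 2.57 with the mean transcript length, and the ratio to P4ha3 was 385 with the coding sequence. P4hb, which makes the partner subunit and also works alone as a protein disulfide isomerase, stood at 7322 per kb, 4.80 times the 3 alpha subunit genes together.

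The lysyl hydroxylases had lower levels than either of these. Plod3, whose enzyme also adds sugars to hydroxylysine, had a mean normalized count of 1956 and 596 per kb. Plod1, which acts on lysines of the helix, had a mean normalized count of 2004 and 489 per kb. The order of these genes thus differed between the count and the level per kb. Plod3 stood at 1.22 times Plod1 per kb of the longest transcript, whereas Plod1 stood at 1.17 times Plod3 with the mean transcript length and 1.04 times with the coding sequence. Plod2, which acts on the telopeptides at the ends of the collagen chain, was the lowest of all 10 genes, with a mean normalized count of 667 and 182 per kb. Per kb, Plod3 stood 3.27 times and Plod1 2.69 times above Plod2, which held 14.4% of the summed level of the lysyl hydroxylases. With the mean transcript length these ratios were 5.53 and 6.45, and the share of Plod2 was 7.71%. Plod1 lies at chr4:147909753-147936767 on the minus strand with 19 exons, Plod2 at chr9:92542223-92608428 on the plus strand with 20, and Plod3 at chr5:136987019-136996648 on the plus strand with 19. Plod3 overlaps Znhit1 and Mir702, and Plod2 overlaps Gm38391. The libraries were made with a stranded kit, but whether the counting used the strand is not given in the sources used here.

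Among the lysyl oxidases, Loxl1 stood highest by count and per kb of the longest transcript, and Lox stood highest per kb of coding sequence. Loxl1, known for its part in the renewal of elastic fibres, had a mean normalized count of 3069 and 931 per kb. Lox, the founding member, which acts on both collagen and elastin, had a mean normalized count of 2525 and 533 per kb, and Loxl1 stood at 1.75 times Lox per kb. With the mean transcript length this was 1.70, while per kb of coding sequence Lox stood at 1.21 times Loxl1. The other lysyl oxidases were lower and close together. Loxl3 had a mean normalized count of 1214 and 296 per kb. Loxl2, which is known to crosslink basement membrane collagen, had a mean normalized count of 1567 and 295 per kb. Loxl4 had the lowest mean normalized count of the family, 851, with 228 per kb. The 5 genes thus spanned a 4.09-fold range per kb.

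By sequence group, the pair Lox and Loxl1 summed to 1463 per kb, 64.1% of the 2282 of all lysyl oxidases. The trio Loxl2, Loxl3 and Loxl4 summed to 819 per kb, a value that contains the uncertain level of Loxl2. The lysyl oxidases together stood at 1.80 times the sum of the lysyl hydroxylases, which was 1268 per kb. This ratio was 1.08 with the mean transcript length and 2.54 with the coding sequence. Lox lies at chr18:52516067-52529867 and Loxl1 at chr9:58287738-58313186, both on the minus strand with 7 exons. Loxl3 lies at chr6:83034173-83052562 on the plus strand with 14 exons, and Loxl4 at chr19:42593982-42612813 on the minus strand with 15. Loxl3 overlaps Mir7040 and Htra2, Lox overlaps AC161119.1, and Loxl2 overlaps Gm27177, Gm37513 and Mir6950.

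From the highest to the lowest level per kb, the genes ran Serpinh1, P4ha1, Loxl1, Plod3, Lox, Plod1, Loxl3, Loxl2, Loxl4 and Plod2, and the first stood at 44.6 times the last, or 67.1 times with the mean transcript length. After the step from Serpinh1 to P4ha1, each gene stood 1.00 to 1.65 times above the next. The closest neighbours were Loxl3 and Loxl2 at 1.00, Lox and Plod1 at 1.09, and Plod3 and Lox at 1.12. These turned with another length. With the mean transcript length, Loxl2 stood at 375 per kb against 330 for Loxl3, and Plod1 at 1178 against 548 for Lox. With the coding sequence, Lox stood at 2048 per kb against 880 for Plod3. Wider steps changed as well. With the mean transcript length, Plod3 stood at 1008 per kb against 931 for Loxl1, and Loxl4 at 370 against 330 for Loxl3. The step from Plod1 to Loxl3, 1.65 per kb of the longest transcript, was wider with the mean length, at 1178 against 330 per kb. Without values per library, no neighbours in this order could be said to differ beyond their spread. The order also depended on the length used: 6 genes took another place with the mean length of the coding transcripts, and 6 with the longest coding sequence. Serpinh1 and P4ha1 stayed first and second, and Plod2 last, with both.

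**Figure D2:**
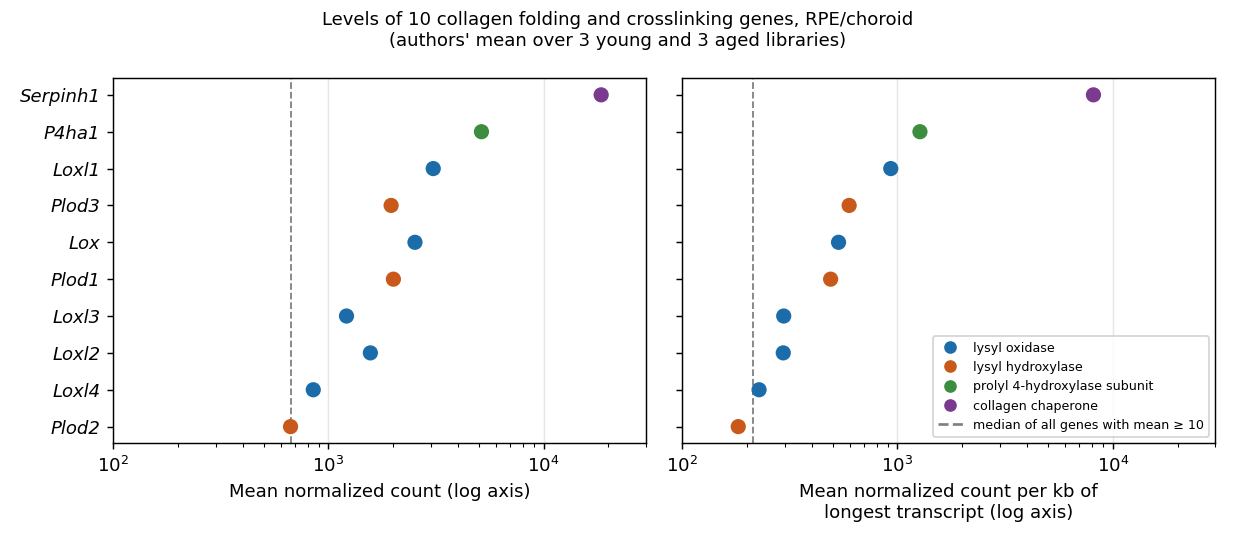
Mean normalized count (left) and mean normalized count per kb of the longest transcript (right) of the 10 genes, on log axes, ordered by the level per kb; each point is the authors' mean over 3 young and 3 aged libraries, colours mark the role, and the dashed line is the median of all genes with a mean of at least 10. Serpinh1 stands apart at 8133 per kb, and Plod2 is the lowest on both scales.

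The levels were read beside those of other genes of collagen biosynthesis. Of 42 such genes in 6 lists, 41 were listed in the table and Mia3 was not listed under that name. The minimum of 10 was reached by 40, and Tll2, a protease related to the one that removes the procollagen C-propeptide, was below it with 5.92 mean normalized counts. The median of the pathway genes was 695 per kb, beside 511 for the 10 genes. Above Serpinh1 per kb stood 1 pathway gene, Hspa5, the general chaperone of the endoplasmic reticulum, with 8180. With the mean transcript length Hspa5 stood at 0.78 times Serpinh1. Below Plod2 stood 8 pathway genes.

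By step of the pathway, the 4 listed genes of folding and export had the highest median, 2933 per kb. They ran from 643 for Fkbp10, a prolyl isomerase, to 8180 for Hspa5. The others were Fkbp14 at 853 and Hsp90b1 at 5014, so this median fell in a wide gap between low and high genes. The 15 substrates had a median of 1047 per kb. They ran from 211 for Col5a1, a minor fibrillar collagen, to 6960 for Col1a2, a chain of the main fibrillar collagen. Besides collagen chains, this list held genes of elastic fibres and a proteoglycan. The 9 hydroxylases and partners had a median of 808 per kb, with P4hb the highest and P4ha3 the lowest at 5.65. Hydroxylysine glycosylation had 2 genes, the galactosyltransferases Colgalt1 at 1112 and Colgalt2 at 222 per kb. The 3 other crosslinking genes had a median of 272 per kb, from 102 for Atp7a, the transporter that loads copper onto secreted enzymes, to 1364 for the transglutaminase Tgm2. Propeptide removal had the lowest median, 110 per kb over 8 genes, from 1.27 for Tll2 to 4284 for Pcolce, which enhances the protease. Serpinh1 stood at 1.17 times Col1a2 and 1.26 times Col3a1 per kb, both of them genes of collagens that it binds. These were the highest of the substrates. Col1a1, which makes the other chain of the collagen of Col1a2, was lower, at 1010 per kb against 8133 for Serpinh1. The ratio to Col3a1 was 0.784 with the mean transcript length.

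**Figure D3:**
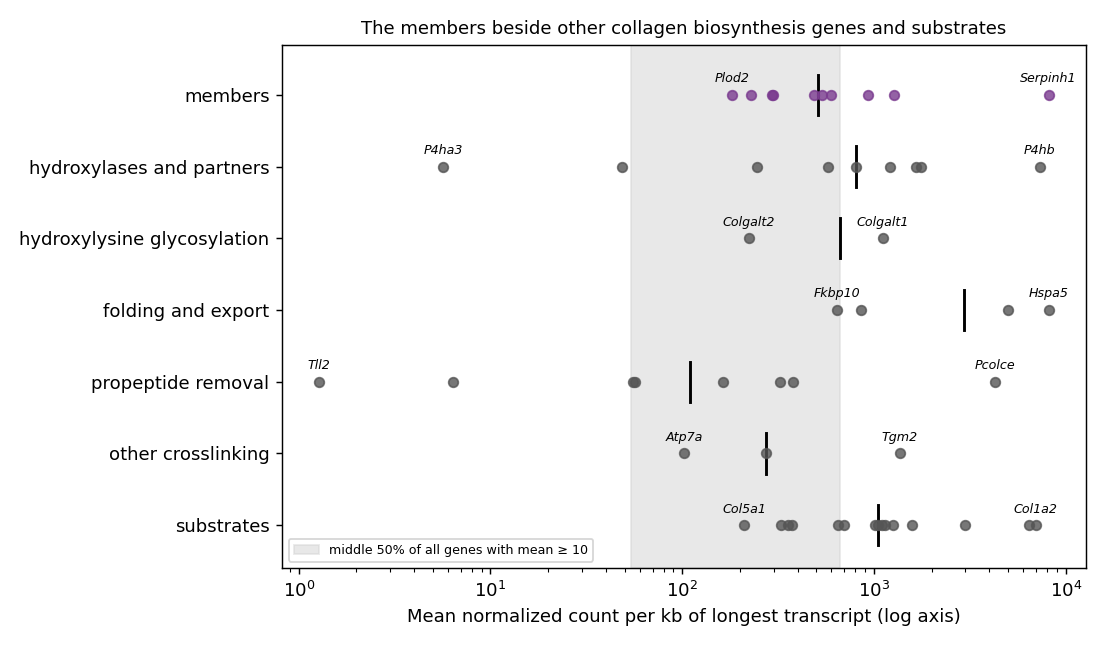
Mean normalized count per kb of the longest transcript, on a log axis, of the 10 genes (top row, "members") and of the 41 listed pathway genes by list; each point is 1 gene, black bars are medians, the grey band is the middle 50% of all genes with a mean of at least 10 (53.8 to 668 per kb), and the highest and lowest gene of each row are named. The medians run from 110 for propeptide removal to 2933 for folding and export, with 511 for the 10 genes.

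The labelled tissue was checked against marker lists, and the sample held several cell types. RPE markers had a median of 47916 per kb, with Rgr the highest at 63232, and the lowest was Best1 at 39.3. Pigment cell markers had a median of 39758 per kb, led by Dct, and fibroblast markers a median of 10219, led by the collagen-binding proteoglycan gene Dcn. Medians per kb were 915 for endothelium (highest Plvap), 2405 for mural cells (Rgs5) and 1855 for macrophages (C1qa). Markers of tissues that the dissection was meant to remove were also measured. Their medians per kb were 20416 for skeletal muscle (Mylpf) and 4479 for lens (Cryaa). Of the red cell genes, Hba-a1 stood at 54141 per kb. No marker of these lists was listed at 0. Fibroblasts, mural cells and muscle connective tissue can express the 10 genes too, and the part of each cell type in their levels was not tested.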

How the data were processed

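The 6 libraries of RPE/choroid RNA (3 young, 3 aged) were processed by the authors: reads were trimmed (BBDuk), aligned by STAR to the GRCm38 transcripts of Ensembl release 82, quantified by Sailfish and scaled by the total count method. The deposited table holds for each gene a signal, the mean normalized count that the authors' DESeq2 run took over all 6 libraries, which is the only column used. Its other 5 value columns hold the authors' own comparison of the age groups (a fold change, its error, a statistic and p-values) and were not used, so no age comparison was made. Depth per library is not in the table. By the steps between the lowest values (tolerance 2e-06), 1 count in 1 library was worth 0.157 to 0.174 in the mean, a 1.11-fold range. Whether such a count was 1 read or an already scaled estimate is not given in the sources used here. The lowest of the 10 genes was over 3839 times the larger step.

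Symbols were matched to GENCODE M21 (GRCm38), which gave a length for 97.1% of the genes with a mean of at least 10. Means were divided by the longest transcript in kb. Coding sequences were read from GENCODE M21 and translated, in place of RefSeq proteins, and aligned globally without end penalties (BLOSUM62, gap opening 11, extension 1) with Biopython 1.88. The search for 50-base words shared with other genes, the comparison of the last 200 residues, the copper site search and the ratios between genes were chosen after values were seen. The genes and lists were chosen with earlier results of these data known. The genes named were all 10 genes of the group, the highest and lowest of each pathway list per kb with any gene below the minimum, and the highest of each marker list reported; 2 marker lists are not reported here. Best1, P4ha2, Col3a1, Col1a1, Fkbp14 and Hsp90b1 were named after their values were seen. The table gives 7 pathway or marker genes under older symbols. The levels per kb, the percentages of genes at or below a level and the steps between the lowest values were tested on simulated data. The sequence comparisons and the choice of transcript length were not. Python 3.11.15, pandas 2.3.3 and scipy 1.17.1 were used.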

Additional observations from a re-analysis of the deposited data

How the results depend on the processing

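No paired analysis was possible because the column used has no value per library. For the same reason the planned age comparison and its alternatives (another count tool, other scaling, no filter, another pseudocount, leaving out replicates) were not run. The other alternatives were planned, except that ratios and shares between genes were recomputed with other lengths after seeing the data. Of those ratios, 4 crossed 1. Loxl1 over Lox was 0.823 with the longest coding sequence. Plod1 over Plod3 was 1.17 with the mean length and 1.04 with the coding sequence. With the mean length, Hspa5 over Serpinh1 was 0.78 and Serpinh1 over Col3a1 was 0.784. The steps from P4ha1 down the order of the 10 genes were not among the recomputed ratios. The closest neighbours there also turned, as did the step from Loxl1 to Plod3. The levels per kb moved with the transcript length chosen by more than counting error. With the mean length of the coding transcripts they were 375 for Loxl2, 330 for Loxl3, 370 for Loxl4, 1178 for Plod1, 1008 for Plod3, 1650 for P4ha1 and 12250 for Serpinh1. With the longest coding sequence they were 2048 for Lox, 1685 for Loxl1, 673 for Loxl2, 537 for Loxl3, 374 for Loxl4, 918 for Plod1, 293 for Plod2, 880 for Plod3, 3209 for P4ha1 and 14783 for Serpinh1. Plod1 stood at place 3 under the mean length, against 6 under the longest transcript, and Lox at place 3 under the coding length, against 5. The group's share of all counts was 0.0996% without the 10 most abundant genes. A minimum of 50 or of 100 kept all 10 genes and 38 of the pathway genes. Identity over the longer protein was lower for all 13 pairs, at the least 0.47 times the value given, and it left the 95% binomial interval for 7 pairs. Ranked among genes above 0, or among all genes listed, each of the 10 genes stood at a higher percentage, by up to 1.46 times. The direction was fixed by the setting for these percentages, for identity over the longer protein and for levels per kb with the shorter lengths. Only the sizes of these changes are results. With no spread between libraries, no level here carries an error, and the intervals used for these comparisons cover counting error only.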

Other observations

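The chains of a collagen molecule are made in fixed proportions, and the substrates of these enzymes were set side by side after their values were seen. Col1a1, whose protein supplies more chains to the main fibrillar collagen than that of Col1a2, had the lower level: Col1a2 stood at 6.21 times Col1a1 by mean normalized count, 6.89 times per kb of the longest transcript and 6.58 times per kb of coding sequence, and 11.9 times with the mean length of the coding transcripts. The GC content of the transcripts was 58.9% for Col1a1 and 55.7% for Col1a2. Col4a1 stood at 1.77 times Col4a2 per kb, or 4.21 times with the mean length, and Col6a1 at 4.23 times Col6a2. None of these ratios has an error, since the table gives no value per library, and their causes were not tested.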
